A study of Drosophila melanogaster with 8 samples.

Results

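AMP-activated protein kinase (AMPK) is a complex of a catalytic alpha, a scaffolding beta and a nucleotide-binding gamma subunit, and the genes examined here are the Drosophila genes for these subunits, AMPKalpha, alc (alicorn) and SNF4Agamma, together with Lkb1, which encodes a kinase that phosphorylates and activates AMPKalpha. These 4 genes were chosen by name, matched to 1 row each of the count table, and all 4 passed the filter on low counts, as did 7665 of the 17713 genes in the table. The measurements are RNA-seq read counts from midguts of late larvae of mixed sex, in the last instar, collected 96 hours after egg laying, in 4 genotypes with 2 libraries each, all in a y w background. The genotypes are y w, which is wild type for Pngl; Pngl+/-, which carries Pngl[ex14] over the CyoKr>GFP balancer chromosome; Pngl-/-, homozygous for Pngl[ex14]; and Pngl Dp/+, homozygous for Pngl[ex14] with a genomic Pngl transgene on a PBac insertion. Pngl encodes the cytosolic enzyme that removes N-glycans from misfolded glycoproteins. Pngl[ex14] is a single null allele, and the midguts were pooled, 40 per genotype according to the sample descriptions, so each library averages over many animals and over every cell type of the dissected tissue.

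AMPK senses a fall in cellular energy. Its gamma subunit binds adenine nucleotides, and when AMP or ADP replaces ATP there the alpha subunit is more readily phosphorylated on its activation loop and stays active longer. Active AMPK restrains energy-consuming synthesis of lipid, glycogen and protein, partly through the TORC1 growth pathway, and promotes fat oxidation and autophagy. Lkb1 works in a complex with Mo25 and the pseudokinase Stlk, and it also activates a family of AMPK-related kinases. Because AMPK is controlled mainly by nucleotides and phosphorylation, transcript levels describe the supply of its subunits and not its activity. Pngl acts on AMPK signaling in the larval gut muscle, and the comparison made here asks how the transcripts of the complex and of Lkb1 differ between genotypes in the whole midgut.

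Library sizes ran from 20414011 to 28382919 reads assigned to genes. Values are given as CPM, which relate the reads of a gene to the size of its library, after adjusting library sizes by trimmed mean of M values (TMM), which sets the bulk of tested genes equal between libraries. The transcript of Pngl itself was not reduced in the libraries labelled Pngl-/-, where it had 1119 and 1141 counts against 800 and 870 in y w, and it was lowest in Pngl Dp/+ with 478 and 650. Gene counts do not show which exons were read, and 385 of the 2670 exon bases of Pngl are shared with Strica on the opposite strand, so this gene did not provide a check of the genotype labels and the groups are used as labelled.

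AMPKalpha (FBgn0023169; X, 1375536 to 1378896, plus strand, dm6 coordinates) is a compact gene of 2853 exon bases in 2 exons. alc (FBgn0260972; 2R, 9135375 to 9137933, minus strand) has 1544 exon bases in 3 exons. SNF4Agamma (FBgn0264357; 3R, 21140739 to 21214269, plus strand) is spread over 73531 bases with 27 exon blocks and 16 annotated transcripts of 2093 to 6292 bases. Lkb1 (FBgn0038167; 3R, 13676549 to 13679430, plus strand) has 2627 exon bases in 5 blocks. Short exon stretches are shared with genes on the opposite strand, 12 bases of AMPKalpha with CG3719, 79 bases of alc with Hydr1 and 133 bases of Lkb1 with CG9588, whereas SNF4Agamma shares none. The library kit was stranded, but whether the counting used strand is not given in the sources used here, so a few reads in those stretches could belong to either gene.

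All members were detected in every library. AMPKalpha had 1214 to 2100 counts per library and SNF4Agamma had 1058 to 1928, so the counting error of a single library was at most 3.07% for these genes. alc had 608 to 1110 counts. Lkb1 was the least abundant with 278 to 370 counts and a counting error of 5.2% to 6.0%, so its values are the least precise of the 4. These errors cover read counting only, and with 2 libraries per genotype each standard deviation (SD) rests on a pair of values.

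Per kilobase of exon, the catalytic and scaffolding subunits were the most abundant. In y w the mean level was 21.3 ± 0.88 CPM per kilobase for AMPKalpha and 16.7 ± 0.28 for alc (SD, n = 2). In Pngl+/- the same measure was 22.7 ± 0.05 for AMPKalpha and 24.1 ± 0.27 for alc (SD, n = 2). In the libraries labelled Pngl-/- it was 24.9 ± 0.84 for AMPKalpha and 26.2 ± 1.68 for alc, with overlapping libraries, and in Pngl Dp/+ it was 23.9 ± 0.81 and 22.6 ± 0.23 (SD, n = 2). AMPKalpha therefore lay above alc in y w and Pngl Dp/+ and below it in Pngl+/-. Lkb1 ranged from 4.62 ± 0.64 in Pngl Dp/+ to 6.89 ± 0.10 in the libraries labelled Pngl-/-. The position of SNF4Agamma depended on the length used: in y w it was 4.59 CPM per kilobase over all exon blocks, 8.74 over its longest transcript and 26.3 over its shortest, and for alc the shortest transcript also gave 26.2. Only the place of Lkb1 below AMPKalpha and alc held for every length tried.

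On the TMM scale the catalytic subunit gene AMPKalpha was among the least variable of the tested genes. Its TMM-scaled level was 59.1 and 62.7 CPM in the y w libraries, 64.6 and 64.8 in Pngl+/-, 69.9 and 66.6 in Pngl Dp/+, and 72.7 and 69.3 in the libraries labelled Pngl-/-. The genotype means stood in the order y w, Pngl+/-, Pngl Dp/+ and Pngl-/-, with the libraries of the last pair overlapping and no step between neighbours in that order passing the test. From its lowest to its highest library AMPKalpha spanned 0.30 on the log2 scale, and 5.41% of tested genes spanned less, against a median span of 0.75. In the fit of all 8 libraries by the edgeR quasi-likelihood test, AMPKalpha in the libraries labelled Pngl-/- exceeded y w by 1.16-fold (log2 fold change 0.22, standard error 0.05, Benjamini-Hochberg adjusted p = 0.00051). Against Pngl+/- the log2 fold change was 0.13 (adjusted p = 0.025), and against Pngl Dp/+ it was 0.06 with a 95% interval of -0.04 to 0.16 (adjusted p = 0.27).

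The order of AMPKalpha among genotypes was set by the scaling. As a share of all reads, without TMM, AMPKalpha had 68.4 and 71.1 CPM in y w, 57.7 and 57.8 in Pngl+/-, 77.8 and 74.0 in Pngl Dp/+, and 63.6 and 61.2 in the libraries labelled Pngl-/-. On that scale the libraries labelled Pngl-/- lay below both y w and Pngl Dp/+, with log2 fold changes of -0.16 and -0.28, and above Pngl+/- by 0.11. TMM factors were 1.11 to 1.16 in y w and Pngl Dp/+ and 0.87 to 0.89 in Pngl+/- and Pngl-/-, and the median log2 fold change of all tested genes between Pngl-/- and y w was -0.39 without them and -0.01 with them. Set against that median, AMPKalpha was 0.23 higher both with and without TMM.

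**Figure D1:**
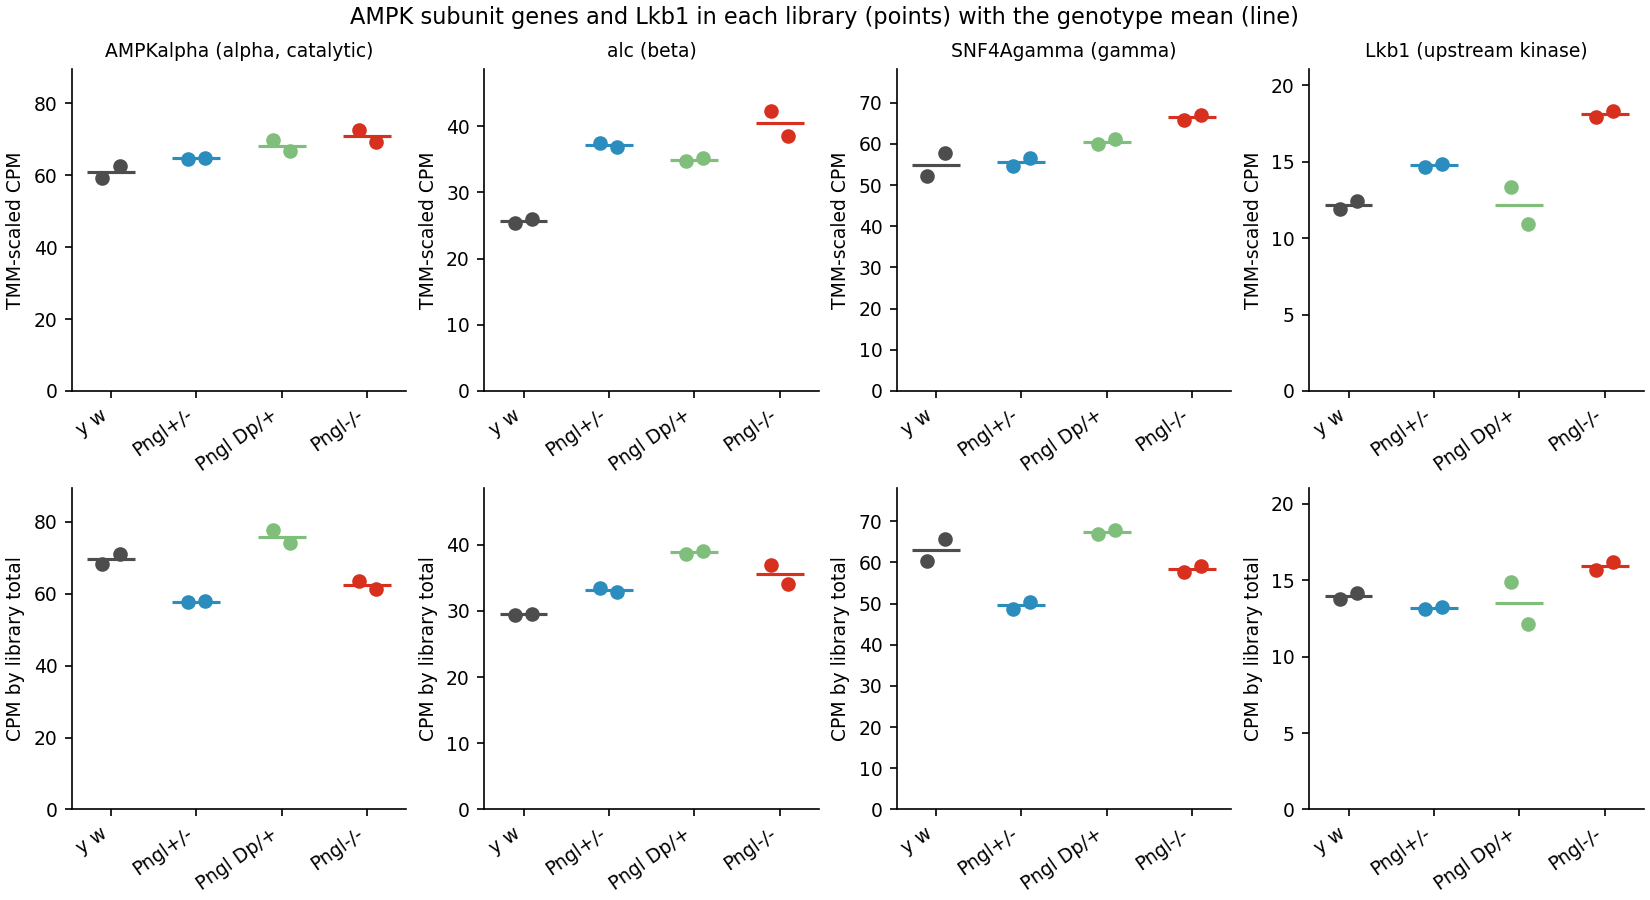
Level of the 3 AMPK subunit genes and Lkb1 in each of the 8 libraries (points) with the genotype mean (line), as TMM-scaled CPM (top row) and as CPM of the library total (bottom row), on axes that start at 0. With TMM the libraries labelled Pngl-/- were the highest for alc, SNF4Agamma and Lkb1, whereas by library total only Lkb1 kept that place, and alc was lowest in y w on both scales.

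The beta subunit gene alc set y w apart from the other genotypes. It had 25.4 and 26.0 CPM in y w, 37.5 and 36.9 in Pngl+/-, 34.7 and 35.2 in Pngl Dp/+, and 42.3 and 38.6 in the libraries labelled Pngl-/-. Every library that carried Pngl[ex14] was above both y w libraries, and the same held by library total, where y w had 29.4 and 29.6 CPM and the other libraries had 32.9 to 39.1. In the edgeR quasi-likelihood fit alc in the libraries labelled Pngl-/- exceeded y w by 1.57-fold (95% interval 1.43 to 1.72, log2 fold change 0.65, adjusted p = 1.0e-07). The call ended by library total, where the log2 fold change was 0.27 (adjusted p = 0.00077), and with upper-quartile factors (0.58). It was 0.53 higher on the log2 scale in Pngl+/- than in y w (adjusted p = 1.6e-06) and 0.44 higher in Pngl Dp/+ (adjusted p = 1.9e-05). Among the genotypes with Pngl[ex14] the differences were small: 0.21 between Pngl-/- and Pngl Dp/+ (adjusted p = 0.0050), 0.12 between Pngl-/- and Pngl+/- (95% interval -0.01 to 0.25, adjusted p = 0.10) and -0.09 between Pngl Dp/+ and Pngl+/- (95% interval -0.22 to 0.04, adjusted p = 0.21). By library total the first of these turned to -0.13 (adjusted p = 0.058) and the last to 0.23 (adjusted p = 0.0029).

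That pattern was common in the table, since 16.0% of tested genes were higher at the adjusted p threshold in all 3 genotypes with Pngl[ex14] than in y w, and 22.0% had all 6 of those libraries above both y w libraries. alc lies on the same chromosome arm as Pngl, 3.11 Mb away, and the 3 genotypes share that mutant second chromosome in 1 or 2 copies. With TMM, alc was 0.44 above y w on the log2 scale in Pngl Dp/+, which carries the Pngl transgene, and 0.65 in Pngl-/-. By library total these differences were 0.40 and 0.27. The part of the Pngl mutation and that of other differences between this chromosome and that of y w was not tested for alc.

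The gamma subunit gene SNF4Agamma had 52.1 and 57.8 CPM in y w, 54.6 and 56.5 in Pngl+/-, 60.0 and 61.1 in Pngl Dp/+, and 65.9 and 67.0 in the libraries labelled Pngl-/-. The y w and Pngl+/- libraries overlapped, and their means differed by 0.01 on the log2 scale (95% interval -0.10 to 0.12, edgeR quasi-likelihood adjusted p = 0.84). Both Pngl-/- libraries were above all others, by a log2 fold change of 0.27 over y w (standard error 0.05, adjusted p = 0.00017), 0.26 over Pngl+/- (adjusted p = 0.00054) and 0.13 over Pngl Dp/+ (adjusted p = 0.027). Pngl Dp/+ was itself 0.14 above y w (adjusted p = 0.032) and 0.13 above Pngl+/- (adjusted p = 0.043). As with AMPKalpha, the differences from y w and from Pngl Dp/+ changed sign without TMM, to -0.11 and -0.20, whereas that from Pngl+/- stayed at 0.24.

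Lkb1, the upstream kinase gene, was highest in the libraries labelled Pngl-/- on both scales. Its level was 11.9 and 12.4 CPM in y w, 14.7 and 14.8 in Pngl+/-, 13.3 and 10.9 in Pngl Dp/+, and 17.9 and 18.3 in the libraries labelled Pngl-/-. By library total the last 2 libraries had 15.7 and 16.2 CPM against 12.2 to 14.8 in the other 6. On that scale the log2 fold change was 0.19 over y w (edgeR quasi-likelihood adjusted p = 0.060) and 0.26 over Pngl Dp/+ (adjusted p = 0.015), and neither difference was called, so the sizes given next hold for TMM. The Pngl Dp/+ pair was the most uneven and spanned the y w values, with a difference of -0.02 between those genotypes (95% interval -0.22 to 0.17, edgeR quasi-likelihood adjusted p = 0.84). Lkb1 in the libraries labelled Pngl-/- exceeded Pngl Dp/+ by 1.51-fold (95% interval 1.33 to 1.72, log2 fold change 0.60, adjusted p = 1.8e-05) and y w by 1.48-fold (95% interval 1.30 to 1.69, log2 fold change 0.57, adjusted p = 2.6e-05). It was 0.30 higher on the log2 scale than in Pngl+/- (adjusted p = 0.010), and Pngl+/- in turn was 0.27 above y w (adjusted p = 0.014) and 0.30 above Pngl Dp/+ (adjusted p = 0.0097). Both Lkb1 values near the fold change threshold of 1.5 moved across it with single libraries: without Pngl Dp/+ replicate 2 the difference between Pngl-/- and Pngl Dp/+ was 0.49, without Pngl-/- replicate 2 it was 0.58, and the difference from y w was called without y w replicate 2 (0.64), without either Pngl Dp/+ library (0.62 each) or without Pngl-/- replicate 1 (0.59).

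**Figure D2:**
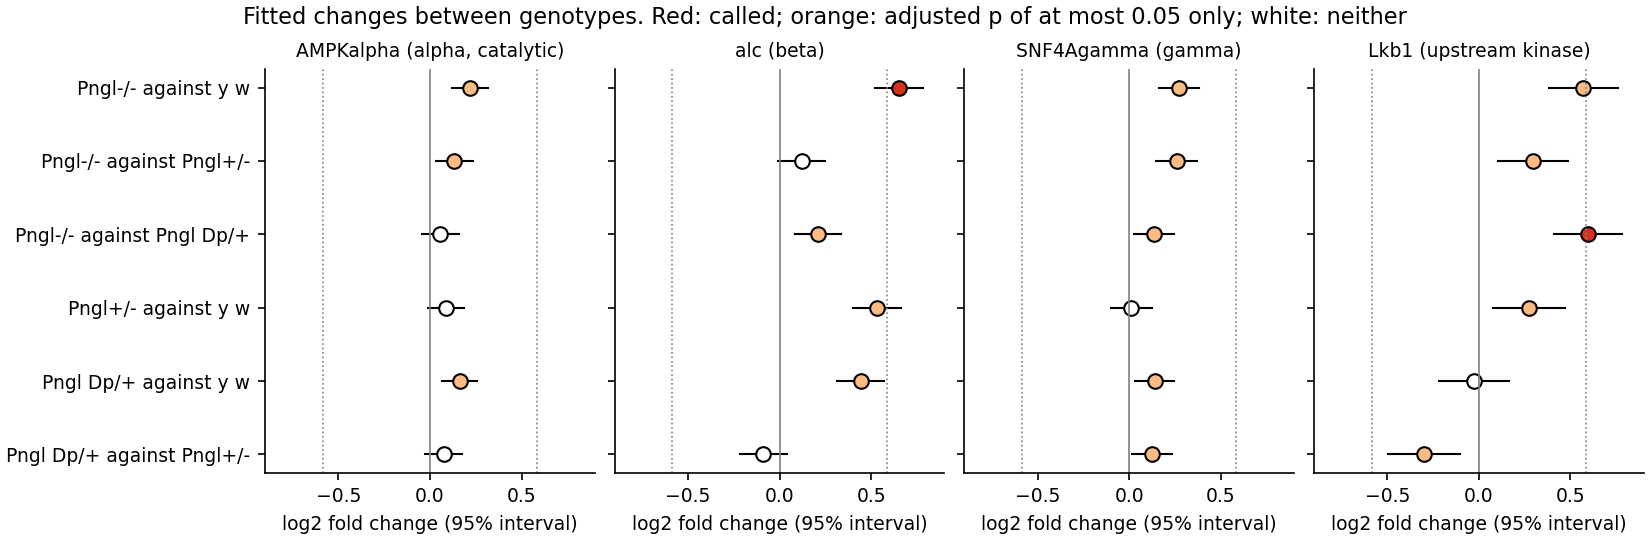
Log2 fold change with its 95% interval for each member (panels) in the 6 comparisons (rows) from the edgeR quasi-likelihood fit, with dotted lines at a fold change of 1.5 in either direction. Only alc between Pngl-/- and y w and Lkb1 between Pngl-/- and Pngl Dp/+ passed both thresholds (red), at 0.65 and 0.60.

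A gene was called when its fold change was at least 1.5 and its adjusted p at most 0.05. By this rule alc was the 1 member of 4 called higher when the libraries labelled Pngl-/- were set against y w, where 17.9% of all tested genes were called higher and 24.4% lower. At the adjusted p alone all 4 members were higher, as were 38.9% of tested genes. Against Pngl Dp/+, Lkb1 was the 1 member called higher, beside 12.1% of tested genes, and alc, SNF4Agamma and Lkb1 were higher at the adjusted p alone, beside 35.2%. Against Pngl+/-, none of the members was called by the edgeR quasi-likelihood test, beside 7.58% of tested genes called higher. AMPKalpha, SNF4Agamma and Lkb1 were higher there at the adjusted p alone, beside 26.2% of tested genes. The same 3 passed an unadjusted p of 0.05 in that test, and 2 members did so by DESeq2. Neither the edgeR likelihood ratio test nor DESeq2 called any member against Pngl+/-. At the adjusted p each of these tools passed 2 members against Pngl+/-, and 2 against Pngl Dp/+.

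Among the control genotypes no member was called by any of these 3 tools. Between Pngl+/- and y w, where 13.0% of tested genes were called higher and 17.5% lower, alc and Lkb1 passed the quasi-likelihood adjusted p upward, beside 35.5% of tested genes, and the same 2 passed the unadjusted p. Between Pngl Dp/+ and y w, with 6.78% called higher and 5.68% lower, AMPKalpha, alc and SNF4Agamma passed both upward, beside 27.4% at the adjusted p. Between Pngl Dp/+ and Pngl+/-, with 14.0% called higher and 7.91% lower, SNF4Agamma passed upward and Lkb1 downward, beside 64.0% of tested genes in either direction, and these 2 were also the members that passed the unadjusted p. The members that passed the adjusted p depended on the tool. Between Pngl+/- and y w the likelihood ratio test passed 2 members upward and DESeq2 passed 1, and between Pngl Dp/+ and y w they again passed 2 and 1. Between Pngl Dp/+ and Pngl+/- each of these tools passed 1 member downward and none upward. The comparisons share genotypes and are not independent of each other.

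Both libraries labelled Pngl-/- lay above all 6 other libraries for alc, SNF4Agamma and Lkb1 on the TMM scale, as for 23.6% of tested genes, and AMPKalpha overlapped them, with its lower Pngl-/- library at 69.3 CPM below the higher Pngl Dp/+ library at 69.9. The share of members called thus did not stand out from a table in which 42.3% of tested genes were called between Pngl-/- and y w. No member was called in the same direction against all 3 other genotypes, as 4.03% of tested genes were upward and 8.51% downward.

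**Figure D3:**
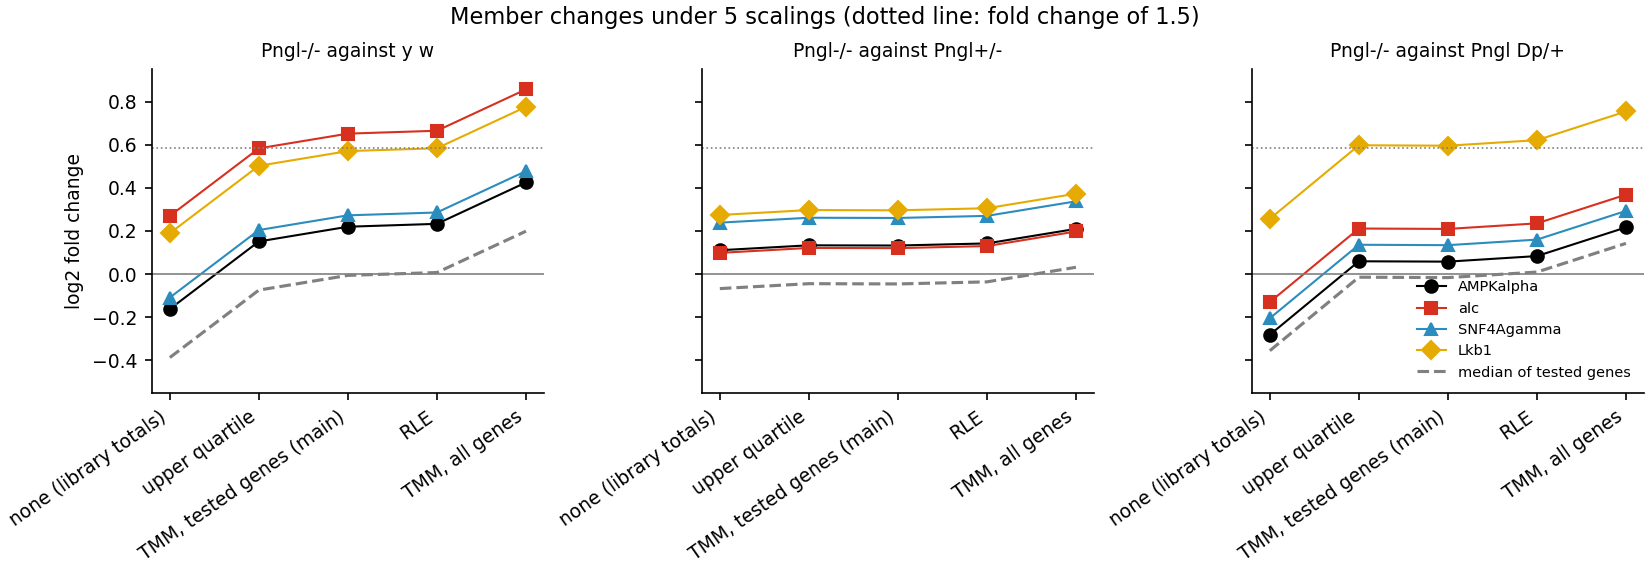
Log2 fold change of each member in the 3 comparisons of Pngl-/- (panels) under 5 ways of scaling the libraries, with the median of all tested genes as a dashed line and a fold change of 1.5 as a dotted line. The members moved together with the median, from -0.16 to 0.42 for AMPKalpha against y w, and the comparison with Pngl+/- changed least.

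Ratios between members within a library do not depend on the scaling. The ratio of alc to AMPKalpha, in reads per kilobase of exon, was 0.79 and 0.77 in y w, 1.07 and 1.05 in Pngl+/-, 0.92 and 0.98 in the Pngl Dp/+ pair, and 1.08 and 1.03 in the libraries labelled Pngl-/-. Relative to the catalytic subunit, the scaffold transcript was thus lowest in y w, and the Pngl-/- and Pngl+/- libraries overlapped. The ratio of SNF4Agamma to AMPKalpha stayed between 0.20 and 0.23 in all libraries, and no genotype mean differed from another by more than 0.13 on the log2 scale. The ratio of Lkb1 to AMPKalpha was 0.22 in both y w libraries, 0.25 in both Pngl+/- libraries, 0.21 and 0.18 in Pngl Dp/+, and 0.27 and 0.29 in the libraries labelled Pngl-/-. Both Pngl-/- values were above all others, and the mean difference from y w was 0.35 on the log2 scale. The ratios are given as values and were not tested.

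**Figure D4:**
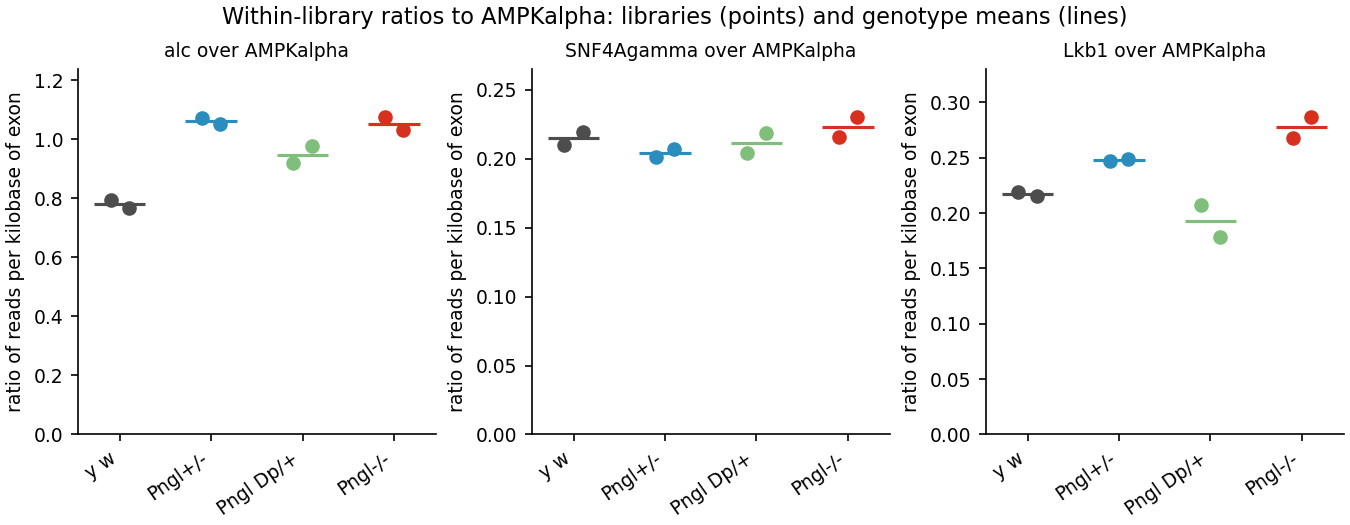
Ratio of alc, SNF4Agamma and Lkb1 to AMPKalpha in reads per kilobase of exon, for each library (points) and as the genotype mean (line), on axes that start at 0. The alc ratio was lowest in y w, at 0.79 and 0.77, the SNF4Agamma ratio stayed between 0.20 and 0.23, and the Lkb1 ratio was highest in the libraries labelled Pngl-/-, at 0.27 and 0.29.

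Over the 8 libraries, which are 4 pairs of the same genotype on a common scaling, the Pearson correlation of log2 CPM was 0.87 between AMPKalpha and SNF4Agamma and 0.83 between AMPKalpha and alc. It was 0.69 between Lkb1 and alc, 0.64 between SNF4Agamma and alc, 0.62 between AMPKalpha and Lkb1, and 0.60 between Lkb1 and SNF4Agamma. Of the 7661 genes outside the 4, 1.91% were at least as close to AMPKalpha as SNF4Agamma was, 3.37% as close as alc and 17.9% as close as Lkb1. Counted from the other gene of each pair, the shares were 2.18%, 11.8% and 28.4%. For the other pairs these shares ran from 15.1% to 29.8%.

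The genes closest to AMPKalpha by this measure were NPF, a neuropeptide of enteroendocrine cells (r = 0.96), mxt, which encodes a translation factor (0.96), and Pi3K59F, the lipid kinase of autophagy (0.95). For alc they were p38a, a stress-activated MAP kinase (0.998), Ifrd1 (0.99) and Secp43 (0.99), and p38a had a mean of 21.3 ± 0.31 CPM in y w and 30.4 ± 0.14, 28.1 ± 0.23 and 32.5 ± 1.2 in Pngl+/-, Pngl Dp/+ and Pngl-/- (SD, n = 2). For SNF4Agamma they were Hex-C, a hexokinase (0.96), sowah (0.96) and pes, a CD36-family receptor (0.95). For Lkb1 they were RpS20 (0.99) and RpS27 (0.98), both of the small ribosomal subunit, and Hgsnat (0.98). RpS20 had a mean of 229 ± 4.9 CPM in y w, 291 ± 12 in Pngl+/-, 397 ± 2.2 in the libraries labelled Pngl-/- and 236 ± 37 in Pngl Dp/+ (SD, n = 2). High correlations were frequent, with 458 genes above 0.9 for alc and 460 for Lkb1 but 64 for AMPKalpha and 88 for SNF4Agamma, so these neighbours are the closest of many.

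Marker transcripts of cell types in and around the midgut also differed between genotypes, and in whole tissue fewer cells of a type cannot be told apart from less RNA per cell. The summed level of 11 visceral muscle markers was 7993 to 8199 CPM in y w and 8251 to 8291 in Pngl Dp/+, but 4537 to 4605 in Pngl+/- and 4613 to 4651 in the libraries labelled Pngl-/-. One by one, 6 of the 11 were lowest in Pngl+/- and 5 in Pngl-/-. Between Pngl-/- and Pngl+/-, 2 of the 11 were called lower and 0 higher, where 13.1% and 7.58% of tested genes were. The 7 enterocyte markers summed to 12646 to 13489 CPM in y w, 16374 to 16765 in Pngl-/-, 22260 to 23090 in Pngl+/- and 22166 to 23414 in Pngl Dp/+, so transcripts of the main absorptive cell type were plainly present. The sum was lowest in y w, as were 4 of the 7 markers one by one, whereas nub was lowest in Pngl Dp/+, GATAe in Pngl+/- and Jon65Aiii in Pngl-/-. The 6 fat body markers summed to most in Pngl+/-, at 50477 to 52707 CPM, and to least in Pngl-/-, at 24351 to 24424. Single fat body markers did not all follow the sum: 4 of the 6, the Lsp genes, were highest in Pngl+/-, but Fbp1 was lowest there, with a mean of 972 CPM against 1744 in y w and 2705 in Pngl Dp/+, Fbp2 was highest in y w and Lsp1gamma was lowest in y w. The 2 male-specific roX RNAs, which mark X chromosome dosage compensation and bear on the X-linked AMPKalpha, summed to 51.7 to 53.2 CPM in y w, 79.8 to 86.4 in Pngl+/-, 81.1 to 84.0 in Pngl Dp/+ and 176 to 177 in Pngl-/-. None of the markers in these lists was at 0, and their part in the member differences was not tested.

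Around the complex, 36 further genes of the pathway were examined in 5 lists, and 31 passed the filter on low counts. In the libraries labelled Pngl-/-, 7 of the 31 were called lower than in y w, where 24.4% of tested genes were. The number called lower was 5 against Pngl+/- (13.1% of tested genes) and 8 against Pngl Dp/+ (22.2%). The 5 called lower than in Pngl+/- were Sik3, Adk3, ACC, Crtc and mTor, of which Adk3 and ACC are named after their values were seen. The median log2 fold change of the 31 genes was -0.27, -0.08 and -0.15 in the 3 comparisons, beside -0.01, -0.05 and -0.02 for all tested genes. Without TMM the number called lower than in y w became 17, beside 3002 of all 7665 tested genes. With TMM factors from all genes it became 5, beside 1425 of the 7665.

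The partners of Lkb1 in its complex, Mo25 and Stlk, are named for their role after their values were seen. Mo25, the scaffold, had 44.6 to 45.0 CPM in y w and 38.9 to 40.2 in the libraries labelled Pngl-/- (log2 fold change -0.18, edgeR quasi-likelihood adjusted p = 0.013), and its difference from Pngl+/- was -0.08 (adjusted p = 0.26). Stlk, the pseudokinase, was 0.33 above y w (adjusted p = 0.0012) and differed by -0.03 from Pngl Dp/+ (adjusted p = 0.76). CG17698, the fly counterpart of a calcium-dependent AMPK kinase of mammals, was lower than in y w and Pngl Dp/+, by log2 fold changes of -0.45 and -0.47, and differed by 0.02 from Pngl+/- (adjusted p = 0.87). None of the 4 genes in this list was called in any of these 3 comparisons by the quasi-likelihood test, the likelihood ratio test or DESeq2, and 3, 0 and 2 passed an unadjusted p of 0.05.

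Of the 8 AMPK-related kinases, 4 were tested. Sik3, a salt-inducible kinase that Lkb1 activates, was called lower in all 3 comparisons: it had 9.20 to 10.7 CPM in y w, 6.58 to 7.80 in Pngl+/-, 8.09 to 9.13 in Pngl Dp/+ and 4.05 to 4.66 in the libraries labelled Pngl-/-. The log2 fold change was -1.20 from y w, -0.72 from Pngl+/- and -0.995 from Pngl Dp/+. Sik3 had 82 to 298 counts per library. In the libraries labelled Pngl-/- it was below the 5 CPM of the filter, so it was tested only through the other genotypes, which favors a lower call. Sik2 and sff were below the filter, and KP78a and KP78b had 0 counts in all 8 libraries.

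Among regulators of AMPK and of adenine nucleotides, Sesn, which encodes the stress-induced Sestrin that promotes AMPK activity and restrains TORC1, was lower in the libraries labelled Pngl-/-, at 11.4 to 12.8 CPM against 16.6 to 20.8 in the other 6. It differed on the log2 scale by -0.71 from y w and -0.67 from Pngl Dp/+, both called, and by -0.53 from Pngl+/-, which missed the fold threshold. The Sesn call against Pngl Dp/+ was lost without Pngl Dp/+ replicate 1 (-0.53) or without Pngl-/- replicate 2 (-0.58), and TMM factors from all genes ended both calls at -0.51.

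Of the 10 AMPK substrates examined, Crtc, a coactivator of CREB whose activity salt-inducible kinases also limit, was called lower in all 3 comparisons. It had 8.43 to 9.45 CPM in y w, 7.04 to 8.12 in Pngl Dp/+, 3.15 to 4.70 in Pngl+/- and 2.12 to 2.42 in the libraries labelled Pngl-/-. On the log2 scale this was -1.97 from y w, -1.74 from Pngl Dp/+ and -0.77 from Pngl+/-. Only 41 to 256 reads lay behind these values, and the call against Pngl+/- was lost without Pngl+/- replicate 2 (-0.47, edgeR quasi-likelihood adjusted p = 0.11) or without Pngl-/- replicate 1 (-0.68, adjusted p = 0.054). Crtc was below the 5 CPM of the filter in the Pngl-/- and Pngl+/- libraries. It was therefore tested only through y w and Pngl Dp/+, which favors lower calls against those genotypes. ACC, the enzyme that makes malonyl-CoA for lipid synthesis and a classical AMPK target, had 130 to 135 CPM in Pngl+/-, 102 to 103 in Pngl Dp/+, 74.4 to 76.4 in y w and 57.8 to 58.4 in the libraries labelled Pngl-/-.

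In the TORC1 list of 7 genes, mTor, the kinase that AMPK signaling restrains, was called lower in all 3 comparisons. Its level was 16.9 to 17.2 CPM in y w, 14.1 to 15.7 in Pngl Dp/+, 12.7 to 13.7 in Pngl+/- and 6.84 to 8.85 in the libraries labelled Pngl-/-, and the log2 fold changes were -1.12, -0.91 and -0.74 against them. Without Pngl-/- replicate 1 the difference of mTor from Pngl+/- was -0.57 and no longer called. Not every gene of this list was lower. Rheb and REPTOR-BP, named after their values were seen, were above y w by 0.55 and 0.50, neither called. They differed from Pngl Dp/+ by 0.04 and -0.10. A test against a fold change of 1.5 called none of Sik3, Crtc and mTor against Pngl+/-. The Pngl-/- libraries were below the other 6 for each of Sik3, Sesn, Crtc and mTor, as for 28.0% of tested genes. These genes were named for such changes, so this place was largely set by the choice and is no further result.

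**Figure D5:**
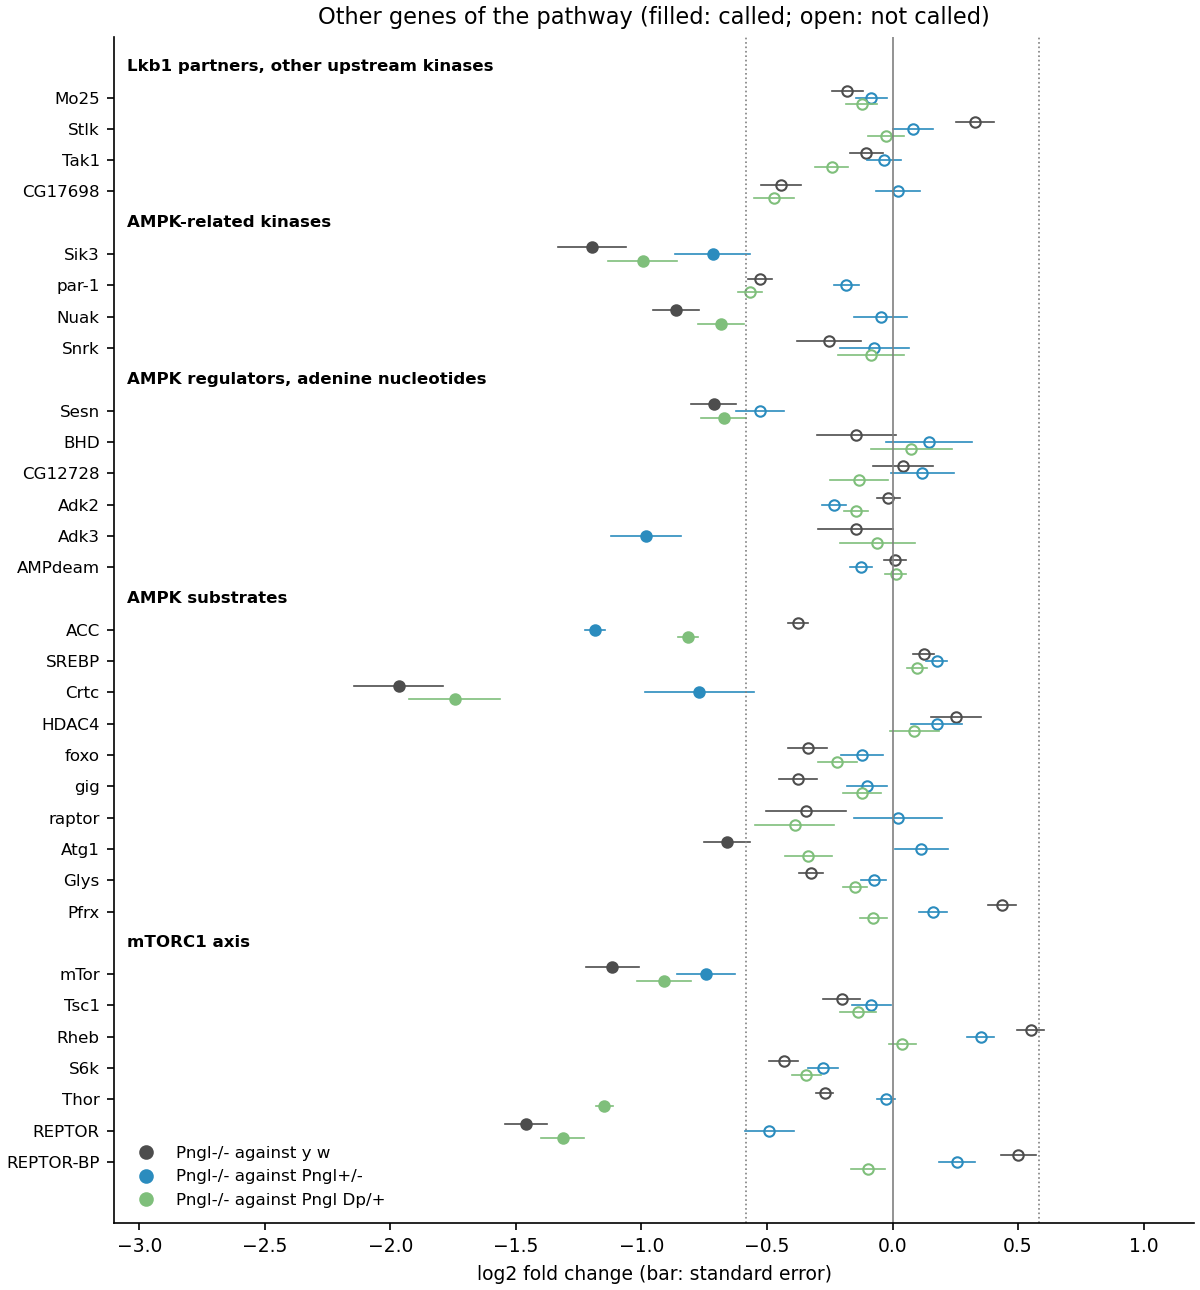
Log2 fold change (point) and its standard error (bar) of the 31 tested pathway genes in the 3 comparisons of the libraries labelled Pngl-/-, grouped by list, with filled points for called genes and dotted lines at a fold change of 1.5. Most points lie within the dotted lines, 7 genes were called lower in the comparison with y w, 5 in that with Pngl+/- and 8 in that with Pngl Dp/+, and Sik3, Crtc and mTor were called lower in all 3.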

How the data were processed

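The deposited table holds raw counts of reads per gene, made by the authors from paired-end stranded mRNA libraries. Per the labels, the authors used cutadapt 1.4, STAR 2.5.3, the dm6 genome and edgeR. The settings of counting (strand, multi-mapping reads) are not given in the sources used here, and the labels and the methods differ on the midguts per pool and on the insertion site of the Pngl transgene. The counts were tested as deposited with edgeR 4.0.16 (glmQLFit, glmQLFTest) on all 8 libraries with 1 mean per genotype, for genes with at least 5 CPM in at least 2 libraries, with TMM factors from those genes and Benjamini-Hochberg adjustment over all 7665 genes tested. A call needed both a 1.5-fold change or more and an adjusted p no higher than 0.05. The test was tried on simulated data. Replicates are biological according to the methods, 2 per genotype.

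Gene positions and exon lengths came from a gene annotation of the same genome assembly. Alternatives were a likelihood ratio test, DESeq2 1.42.0, other scalings and filters, fits of 2 genotypes, replicate number as a block, glmTreat with a 1.5-fold null, and leaving out each library. The members and gene lists were chosen with earlier results of these data known. The text names the 4 members, Pngl, the 3 genes most correlated with each member, and from each list the genes called in the same direction in all 3 comparisons of Pngl-/-, or else the gene with the largest mean change. A gene of the lists is not reported here and was left out of the list counts, which are given for lower genes. No sequences are printed. Totals per library are given with the results, and counting errors cover read counting only.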

Additional observations from a re-analysis of the deposited data

How the results depend on the processing

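Scaling decided most of the changes. Between Pngl-/- and y w, library totals alone turned AMPKalpha to -0.16 and SNF4Agamma to -0.11 on the log2 scale and ended the call of alc at 0.27, and upper-quartile factors ended it at 0.58. Lkb1 was instead called there at 0.78 with TMM factors from all genes, at 0.71 with a CPM minimum of 1 and at 0.78 with no filter. Between Pngl-/- and Pngl Dp/+, library totals turned AMPKalpha to -0.28, alc to -0.13 and SNF4Agamma to -0.20 and ended the call of Lkb1 at 0.26. A test against a fold change of 1.5, as opposed to a threshold on the estimate, called neither alc against y w (0.65) nor Lkb1 against Pngl Dp/+ (0.60). Between Pngl+/- and y w, library totals gave -0.27 for AMPKalpha, -0.35 for SNF4Agamma and -0.085 for Lkb1, upper-quartile factors gave -0.057 for SNF4Agamma, and alc became called at 0.66 with TMM factors from all genes or no filter and at 0.60 with a CPM minimum of 1. TMM factors from all genes, or no filter, turned Lkb1 between Pngl Dp/+ and y w to 0.021 and 0.022 and AMPKalpha between Pngl Dp/+ and Pngl+/- to -0.0069 and -0.0068, and library totals turned alc there to 0.23 and Lkb1 to 0.018. Exon length cancels from the 12 ratio differences within libraries, so leaving it out could not move them and tested nothing. The numbers of genes called against y w were 3242 for Pngl-/- and 6064 with no filter, 2343 for Pngl+/- and 4075 with no filter, and 955 for Pngl Dp/+ and 1462, 1618 and 599 with a CPM minimum of 1, no filter and the test against 1.5. Against Pngl+/- they were 1586 for Pngl-/- (2634 with no filter, 971 with the test against 1.5) and 1677 for Pngl Dp/+ (2683 and 1055), and between Pngl-/- and Pngl Dp/+ 2627 (4957 with no filter). Higher and lower calls between Pngl-/- and y w were 1375 and 1867 with TMM, 541 and 3002 by library totals, and 2118 and 1425 with TMM factors from all genes. With single libraries left out, Lkb1 ranged from 0.56 to 0.64 against y w and from 0.49 to 0.77 against Pngl Dp/+, SNF4Agamma between Pngl+/- and y w from -0.069 to 0.078, and Lkb1 between Pngl Dp/+ and y w from -0.15 to 0.13. Replicate numbers were shared by all genotypes, but same-numbered libraries deviated together only for Pngl+/- and Pngl Dp/+ (correlation 0.38). For the other pairs of genotypes the correlations ran from -0.20 to 0.005. The numbers thus did not pair the libraries of all genotypes, and a pairing of Pngl+/- with Pngl Dp/+ alone was not tested. A replicate block left 3246 genes called between Pngl-/- and y w and alc at 0.65, and changed no member call. Crossed replicate numbers, tried after seeing the data, gave 950 called genes between Pngl Dp/+ and y w. Library depth limits Lkb1 most, at 278 to 370 counts.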
